A study of Homo sapiens with 54 samples.

Results

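The comparison described here set LN229 glioma cells that overexpressed *TRA2B* (TRA2B-OE) against LN229 cells that expressed luciferase (Luc), after *TRA2A* had been cut by CRISPR-Cas9 in both. It rests on 6 RNA-seq libraries, 3 of TRA2B-OE *TRA2A* KO and 3 of Luc *TRA2A* KO, of 54 in the series, and the libraries were chosen by cell line, expressed cDNA and guide alone. Both groups therefore carried Cas9 and a *TRA2A* guide, and they differed in the cDNA that had been delivered by lentivirus. The TRA2B cDNA had been amplified from NCI-H23, a lung cancer cell line. LN229 contributed 15 libraries in 5 conditions, and the others were Luc Control KO, Luc *TRA2B* KO and TRA2B-OE Control KO, where Control KO means guides to control loci. The methods describe transduced populations and name no clone, so cells without a cut may have remained in both groups. The labels do not say whether the 3 replicates of a group were separate cultures, so that p-values measure the spread between these libraries, which may be technical. The question was what added *TRA2B* changes in the transcriptome of a line that tolerates the loss of *TRA2A*.

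TRA2A and TRA2B are paralogous, SR-like proteins that bind GAA-rich stretches of pre-mRNA and favour the inclusion of exons. Each can also promote a poison exon in its own transcript and in that of the paralog, an exon whose inclusion leads to a transcript that is degraded, so that more of one factor tends to mean less of the other. Loss of both is poorly tolerated by many cancer cell lines.

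*TRA2A* lies on the minus strand of chromosome 7 (GRCh38, chr7:23504780-23532041, Gencode v44), and *TRA2B* on the minus strand of chromosome 3 (chr3:185914558-185938103). The study lists 3 *TRA2A* knockout guides for SpCas9, and the sources used here do not say which of them was used for these libraries. They are shown as the candidate sites of the cut in both groups, with the guide in lower case and the adjacent PAM in the genome in capitals.
sg4: tcagtttgtacacaacagagAGG
sg5: tctcgatatggaccattgagTGG
sg6: tggtttatgatcagcgaactGGG
All 3 matched the minus strand of the genome once on chromosome 7, with sg4 at chr7:23513023-23513042, sg5 at chr7:23512982-23513001 and sg6 at chr7:23512951-23512970. All lay inside coding exon 4 of the 8 exons of the canonical transcript. The closest site next to an NGG PAM in the *TRA2B* gene had 9 mismatches for sg4, 8 for sg5 and 6 for sg6. Exact matches were sought on chromosome 7 alone and inexact ones in the *TRA2B* gene alone, so the rest of the genome was not searched.

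The 15 LN229 libraries summed to between 956252 and 960161 TPM, and the number of reads behind a value is unknown from TPM. On the log2 scale the 3 Luc *TRA2A* KO libraries correlated across genes at 0.960 to 0.963 with each other, the 3 TRA2B-OE *TRA2A* KO libraries at 0.953 to 0.962, and libraries of different groups at 0.941 to 0.953. Luc Control KO replicate 1 correlated more with Luc *TRA2B* KO (0.957 to 0.960) than with its own group (0.940 to 0.949), and TRA2B-OE Control KO replicate 1 correlated at 0.943 to 0.947 with its own group against 0.965 between the other 2 libraries of that group. All 15 libraries shared 1 estimate of the spread, so these 2 libraries also bear on the standard errors and adjusted p-values after *TRA2A* KO, and counts without both are given beside the results they move. The glioma markers *VIM* (3245 to 3374 TPM), *SPARC* (1550 to 2644 TPM) and *TNC* (391 to 437 TPM) were abundant in all 6 libraries, while *CHI3L1* stayed below 0.11 TPM and the astrocyte markers *AQP4*, *ALDH1L1* and *SLC1A2* below 0.26 TPM. The melanocytic and oligodendroglial factor *SOX10* reached 378 to 572 TPM.

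*TRA2B* RNA with the added cDNA was at 420% of its level without it. It was at 243, 256 and 254 TPM in the Luc *TRA2A* KO libraries and at 908, 1112 and 1141 TPM in the TRA2B-OE *TRA2A* KO libraries. The groups were far apart, with a log2 fold change of 1.98 ± 0.12 (SE of the fit, n = 3 per group, limma adjusted p = 2.2e-06), and the call was kept without each library in turn. The exact permutation test of the 6 values gave p = 0.1, which is the smallest that 3 against 3 libraries allow. Gene-level TPM values do not separate the cDNA from the endogenous gene, so the response of endogenous *TRA2B* to its own cDNA was not measured here.

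*TRA2A* RNA was not distinguishable between the groups. It was at 74.2, 67.1 and 65.0 TPM with Luc and at 75.6, 68.8 and 65.4 TPM with TRA2B-OE. The values overlapped throughout, with a log2 fold change of −0.06 ± 0.07 (adjusted p = 0.68, exact permutation p = 0.7) that turned to 0.02 in the TPM as deposited. Luc *TRA2A* KO held 62.9% of the *TRA2A* of Luc Control KO (109 ± 3.31 TPM, SD), so that cutting left most of the RNA in place, and a gene-level value does not show how much of it still encodes protein. With *TRA2A* uncut the same cDNA went with less *TRA2A*, 80.2 ± 4.86 TPM in TRA2B-OE Control KO, a log2 fold change of −0.49 ± 0.07 (adjusted p = 0.0071), and of −0.55 ± 0.08 (adjusted p = 0.024) without the 2 Control KO libraries that stood apart. The log2 fold change after *TRA2A* KO minus that with *TRA2A* uncut was 0.43 ± 0.10 and did not pass (limma adjusted p = 0.52). The sum of both paralogs was 320 ± 3.49 TPM in Luc *TRA2A* KO and 1123 ± 122 TPM in TRA2B-OE *TRA2A* KO, of which *TRA2B* made up 76.6 to 79.6% and 92.3 to 94.6%.

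**Figure D1:**
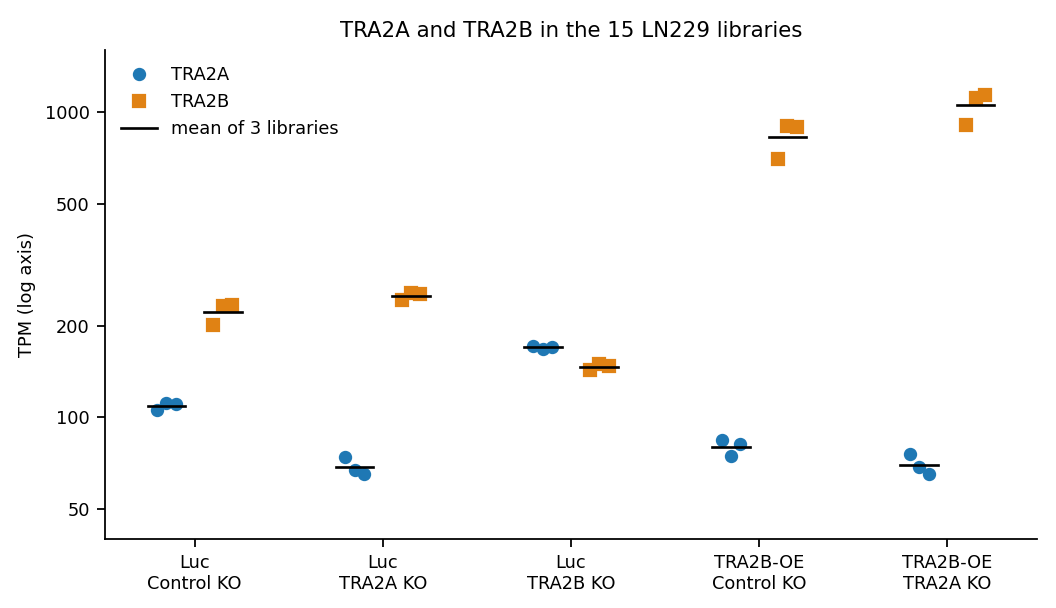
TPM of *TRA2A* (circles) and *TRA2B* (squares) on a log axis in the 15 LN229 libraries by condition, 1 point per library, with bars at the mean of 3 libraries. *TRA2B* lies at 908 TPM or above in TRA2B-OE *TRA2A* KO and at 256 TPM or below in Luc *TRA2A* KO, while *TRA2A* lies between 65.0 and 75.6 TPM in both.

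Among all genes tested, 250 were higher with TRA2B-OE after *TRA2A* KO (1.35%) and 56 were lower (0.303%), where a call needed an adjusted p below 0.05 together with a log2 fold change beyond 1 in either direction. Quantile normalization gave 200 higher and 80 lower, and the fit without the 2 Control KO libraries that stood apart gave 307 and 104, sharing 298 of the 306 calls. Without the fold threshold 811 rose (4.39%) and 601 fell (3.25%), which is 7.64% of genes together, and the 3 libraries of each group did not overlap in 32.2% of genes. All 306 calls kept their direction without each library in turn, and 116 of them were called each time. Leaving out TRA2B-OE *TRA2A* KO replicate 2 left 170 calls, Luc replicates 1 and 2 left 203 and 202, and TRA2B-OE replicate 3 left 203.

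Most of the genes called higher were of low level and were not protein-coding. Of the 250, 188 had a mean under 5 TPM over the 6 libraries, 54 a mean of 5 to 20 TPM, and 8 a higher one. A mean under 5 TPM was also found in 37 of the 56 genes called lower and in 6589 of the 18490 genes tested. By symbol, 107 of the 250 (42.8%) carried only the name of a genomic clone, a class that made up 17% of the genes tested, and 78 (31.2%) were protein-coding against 68.9% of genes tested. Intronic transcripts, RNAs annotated inside an intron and marked by the suffix -IT, were called higher in 8 of 45 cases (17.8%) and lower in none, and 36 of the 45 had a positive log2 fold change, with a median of 0.42 against −0.01 for all genes tested. Of the 56 genes called lower, 21 were protein-coding, 15 were small RNAs and 14 had clone names. Genes classed as small RNAs were called in both directions, with 18 of 1152 higher (1.56%) beside the 15 lower (1.3%). The class also held *MIR22HG*, the host of a microRNA, and copies such as *RN7SL219P*. With protein-coding genes alone in the scaling, the fit and the adjustment, 92 were higher and 25 lower, and removing the trend with transcript length and GC content as well gave 93 and 28, sharing 93 of the 99 protein-coding calls of the fit to all genes.

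**Figure D2:**
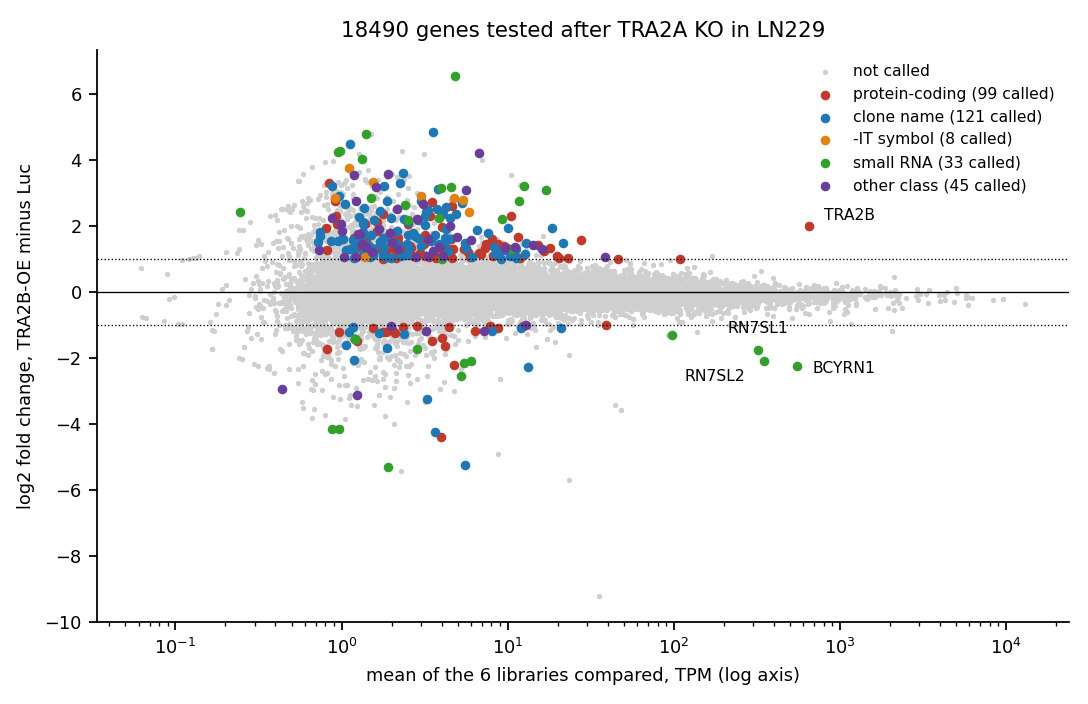
Log2 fold change (TRA2B-OE *TRA2A* KO minus Luc *TRA2A* KO) of each gene tested against its mean TPM over the 6 libraries on a log axis, with called genes coloured by class and dotted lines at a log2 fold change of 1 and −1. The 121 called genes with clone names (blue), the 8 intronic transcripts (orange) and most of the 99 protein-coding calls (red) sit at a low level, and *TRA2B*, *RN7SL1*, *RN7SL2* and *BCYRN1* are called at a high one.

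Intronic transcripts made up 4 of the 15 genes named as higher, and 3 of them led that list. *ENO1-IT1*, named for an intron of the glycolytic enzyme gene *ENO1*, was at 1.30, 1.18 and 1.22 TPM with Luc and at 8.90, 10.8 and 9.16 TPM with TRA2B-OE. All 3 TRA2B-OE libraries were higher by a wide margin, with a log2 fold change of 2.79 ± 0.17 (adjusted p = 2.2e-06), while *ENO1* itself was at 1538 and 1473 TPM (log2 fold change −0.14, adjusted p = 0.59). *KIRREL-IT1* was at 0.473, 0.538 and 0.836 TPM against 4.82, 6.01 and 5.47 TPM (2.91 ± 0.38, adjusted p = 0.0013), and its host *KIRREL* at 63.9 and 62.2 TPM (−0.12, adjusted p = 0.20). *GRK5-IT1* rose from 1.15, 2.08 and 1.92 TPM to 12.3, 9.73 and 8.22 TPM (2.43 ± 0.38, adjusted p = 0.0031). *DNM3-IT1* was at 1.58, 0.532 and 1.21 TPM against 10.1, 7.51 and 7.54 TPM (2.84 ± 0.75, adjusted p = 0.037). Of the 8 hosts of a called intronic transcript, only *DNM3* passed an adjusted p of 0.05, and it fell (log2 fold change −0.64, adjusted p = 0.027), opposite to the transcript in its intron. Leaving out 1 library kept the first 3 past the threshold, but *DNM3-IT1* lost it each time (highest adjusted p 0.13, without Luc replicate 2). Reads of an intronic transcript and of unspliced host RNA on the same strand cannot be told apart in these values.

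Among protein-coding genes, *SFN*, *SERPINB7* and *LRRK1* stood out for size and reproducibility. *SFN* (chr1:26863149-26864456, plus strand), which encodes the epithelial cell-cycle regulator 14-3-3 sigma, was at 0.843, 0.849 and 0.741 TPM with Luc and at 5.36, 5.87 and 7.52 TPM with TRA2B-OE (log2 fold change 2.72 ± 0.30, adjusted p = 4.9e-04). *SERPINB7* (chr18:63752935-63805376, plus strand), a serine protease inhibitor, rose from 3.14, 3.2 and 3.44 TPM to 17.3, 19.8 and 15.7 TPM (2.31 ± 0.40, adjusted p = 0.0055). *LRRK1* (chr15:100919327-101078257, plus strand), a leucine-rich repeat kinase, was at 5.61, 4.97 and 5.05 TPM against 17.1, 18.3 and 18.0 TPM (1.68 ± 0.15, adjusted p = 1.7e-04). Within each group the 3 values were close, and the groups were more than 3-fold apart in each of these genes. *PYGM*, the muscle glycogen phosphorylase, was at 1.41, 1.63 and 0.646 TPM against 9.38, 8.13 and 6.66 TPM (2.62 ± 0.41, adjusted p = 0.0030). *HPX*, which encodes the haem carrier hemopexin, was at 17.8, 11 and 11.5 TPM against 40.2, 44.6 and 40.5 TPM (1.58 ± 0.30, adjusted p = 0.0081), the highest level among the genes named here as higher. 

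The other genes named as higher changed by a log2 fold change of 1.45 to 2.30. They were *IL9R*, the receptor of interleukin 9, with 1.2, 2.69 and 0.218 TPM against 6.90, 5.72 and 3.86 TPM, the orphan receptor gene *GPR78* (1.96 ± 0.41), *ZMYND10* (1.61 ± 0.25), a gene of cilium assembly, *EID3* (1.61 ± 0.24), the antisense RNA *IDI2-AS1* (1.6 ± 0.33) and *AVIL* (1.45 ± 0.26), an actin-binding protein of the villin family. Of the 15 genes named as higher, 11 passed an adjusted p of 0.05 without each library in turn. The exceptions were *DNM3-IT1*, *IL9R* (highest adjusted p 0.12, without TRA2B-OE replicate 2), *GPR78* (0.053, without Luc replicate 1) and *IDI2-AS1* (0.054, without TRA2B-OE replicate 2).

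**Figure D3:**
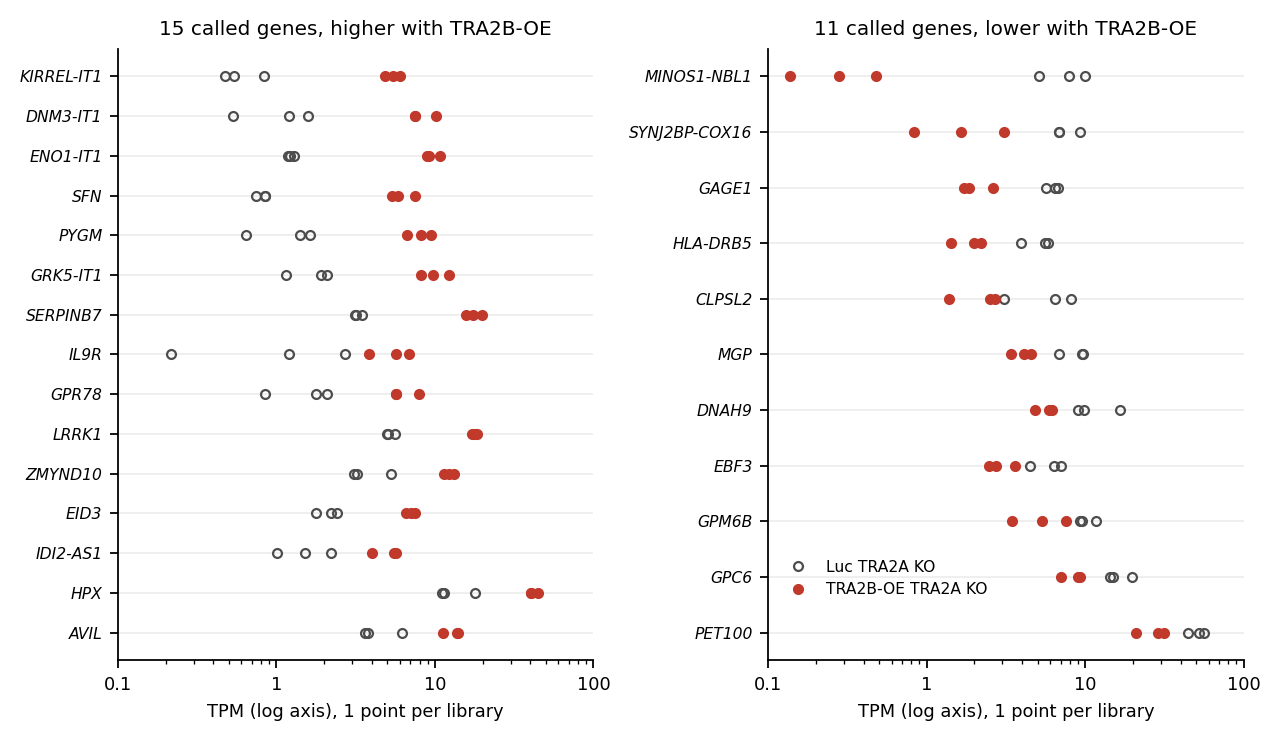
TPM on a log axis of the 15 named genes that were higher (left) and the 11 that were lower (right) with TRA2B-OE after *TRA2A* KO, with 1 open circle per Luc *TRA2A* KO library and 1 filled circle per TRA2B-OE *TRA2A* KO library. By the rule for naming, the circles of the groups do not overlap in any gene, and the groups come close in *CLPSL2*, where the nearest libraries are at 3.07 and 2.71 TPM.

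*GPC6* (chr13:93226807-94408020, plus strand), a cell-surface heparan sulfate proteoglycan, was at 19.7, 14.4 and 14.9 TPM with Luc and at 9.24, 8.97 and 7.06 TPM with TRA2B-OE (log2 fold change −1.02 ± 0.17, adjusted p = 0.0044). *EBF3*, a transcription factor of neuronal differentiation, was at 7.06, 6.35 and 4.47 TPM against 3.58, 2.72 and 2.49 TPM (−1.07 ± 0.19, adjusted p = 0.0057). *GPM6B*, a proteolipid family membrane protein of neurons and oligodendrocytes, was at 11.7, 9.50 and 9.33 TPM against 7.53, 5.37 and 3.43 TPM (−1.03 ± 0.21, adjusted p = 0.011). Each of these fell to about the same extent, and the spread of the Luc libraries was larger than that of the TRA2B-OE libraries in *GPC6* and *EBF3*. *MGP*, the matrix Gla protein that inhibits calcification, was at 9.71, 9.48 and 6.88 TPM against 4.53, 4.09 and 3.39 TPM (−1.17 ± 0.26, adjusted p = 0.018). *DNAH9*, a heavy chain of ciliary dynein, was at 16.7, 9.76 and 8.97 TPM against 5.92, 6.13 and 4.85 TPM (−1.08 ± 0.22, adjusted p = 0.012), and *PET100*, a chaperone of cytochrome c oxidase assembly, at 55.9, 52.5 and 44.6 TPM against 20.9, 28.8 and 31.4 TPM (−1.01 ± 0.19, adjusted p = 0.0075). Of the 11 genes named as lower, *GPC6*, *EBF3*, *GPM6B*, *DNAH9* and *PET100* passed without each library in turn, and *MGP* did not (highest adjusted p 0.069, without TRA2B-OE replicate 3).

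The remaining 5 are less certain. *MINOS1-NBL1* (−4.40 ± 1.18) and *SYNJ2BP-COX16* (−2.22 ± 0.55) are read-through transcripts that join neighbouring genes and share sequence with them. Of 60 read-through symbols, 3 were called lower, these among them, and 0 higher, against 0.303% and 1.35% of all genes tested. The parts of *MINOS1-NBL1* and *SYNJ2BP-COX16* were little changed, with log2 fold changes of −0.15 for *MINOS1*, 0.03 for *NBL1*, −0.07 for *SYNJ2BP* and 0.00 for *COX16*, and none passed (lowest adjusted p 0.33). *GAGE1* (−1.65 ± 0.34) belongs to a family of near-identical copies, *HLA-DRB5* (−1.48 ± 0.35) has close paralogs, and *CLPSL2* (−1.40 ± 0.32) had a Luc library of 3.07 TPM close to the highest TRA2B-OE value of 2.71 TPM. All 5 lost the threshold without at least 1 library, with a highest adjusted p of 0.12 for *MINOS1-NBL1* (without Luc replicate 1), 0.12 for *SYNJ2BP-COX16* and 0.054 for *GAGE1* (without TRA2B-OE replicate 2), 0.072 for *HLA-DRB5* (without Luc replicate 1) and 0.075 for *CLPSL2* (without TRA2B-OE replicate 3).

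Apart from *TRA2B*, the called genes above 100 TPM that changed most, chosen after their values were seen, were short RNA polymerase III transcripts. *RN7SL1* and *RN7SL2*, which encode the RNA of the signal recognition particle, were at 357, 455 and 673 TPM and at 403, 584 and 713 TPM with Luc. With TRA2B-OE they were at 115, 178 and 157 TPM and at 110, 162 and 140 TPM, log2 fold changes of −1.78 ± 0.25 (adjusted p = 0.0019) and −2.10 ± 0.24 (adjusted p = 6.5e-04). *BCYRN1*, the brain cytoplasmic RNA, was at 985, 845 and 850 TPM against 278, 148 and 190 TPM (−2.24 ± 0.35, adjusted p = 0.0031). With *TRA2A* uncut *BCYRN1* was at 421, 352 and 475 TPM with Luc and at 165, 402 and 503 TPM with TRA2B-OE, so that its level in Luc *TRA2A* KO lay above every library of the uncut groups. *RN7SL1* (−0.38, adjusted p = 0.54) and *RN7SL2* (−0.37, adjusted p = 0.53) did not pass with *TRA2A* uncut, nor did *BCYRN1* (−0.40, adjusted p = 0.67). After *TRA2A* KO all 3 RNAs were lower in each TRA2B-OE library than in any Luc library and passed without each library in turn. These RNAs have no poly(A) tail or only a genomically encoded A-rich stretch, and the libraries were made from RNA bound to poly-T beads.

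The short, abundant mRNAs of ribosomal proteins had mostly negative values as well. Of 75 ribosomal protein genes tested, 5 fell and 1 rose, with a median log2 fold change of −0.09 that was −0.01 without scaling and 0.03 under quantile normalization, where 7 rose and 3 fell. *RPS29* was at 1597, 1532 and 1372 TPM with Luc and 598, 911 and 966 TPM with TRA2B-OE (−0.97 ± 0.22, adjusted p = 0.019). *RPL37* (−0.61), *RPL37A* (−0.47), *RPL32* (−0.40) and *RPL27A* (−0.36) fell as well, and *RPL26* rose from 82.6, 83.9 and 79.8 TPM to 113, 122 and 127 TPM (0.47 ± 0.10, adjusted p = 0.013). In all 5 genes that fell, TRA2B-OE replicate 1 was the lowest library, and all 6 genes lost the threshold without at least 1 library (highest adjusted p 0.13, *RPL27A* without Luc replicate 1). Among protein-coding genes at large the median log2 fold change was −0.06 in the shortest of 10 bins of transcript length (207 to 1613 bases), where 33 rose and 63 fell, and between −0.03 and −0.01 in the other bins.

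Mitochondrially encoded transcripts had negative values in 12 of 13 cases, with a median log2 fold change of −0.23, and only *MT-ND6* passed. The median was −0.05 under quantile normalization and also with the trend of length and GC content removed, where none of the 13 passed (*MT-ND6* adjusted p = 0.081), and 3 fell without the 2 Control KO libraries that stood apart. This subunit of complex I, which is encoded on the light strand, was at 938, 1130 and 1288 TPM with Luc and at 761, 634 and 521 TPM with TRA2B-OE (−0.89 ± 0.21, adjusted p = 0.020, and 0.079 without TRA2B-OE replicate 3). The summed TPM of the 13 genes was 64680 to 76220 with Luc and 55140 to 64180 with TRA2B-OE, so the groups did not overlap.

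The gene lists held 739 genes, of which 663 were tested and 59 (8.90%) passed an adjusted p of 0.05, against 7.64% of all genes. Of the 59, 23 rose and 36 fell, and none but *TRA2B* passed the fold threshold. The split depended on the scaling, with 35 higher and 24 lower without scaling and 36 and 31 under quantile normalization. Without the 2 Control KO libraries that stood apart, 169 of the 663 passed (25.5%, against 16.3% of all genes), 37 higher and 132 lower, so the lists' counts rest on whether these libraries enter the estimate of the spread. Of the 57 listed genes that met the rule for naming, 17 passed without each library in turn.

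**Figure D4:**
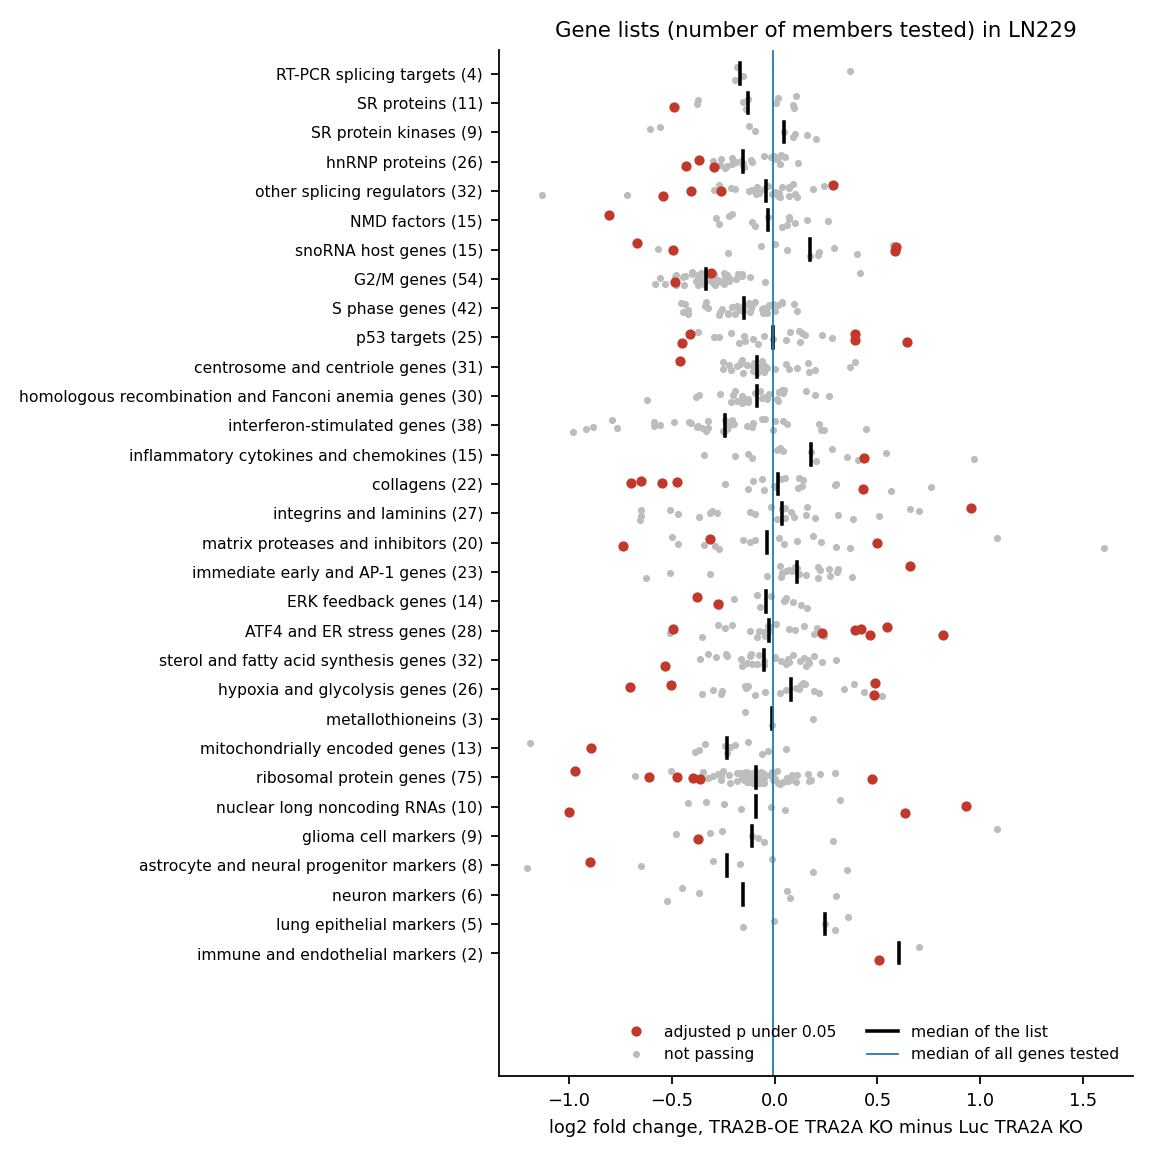
Log2 fold change (TRA2B-OE *TRA2A* KO minus Luc *TRA2A* KO) of the members of 31 gene lists, 1 point per gene, red where the adjusted p was under 0.05 and grey otherwise, with a black bar at each list's median and a blue line at the median of all genes tested. All but 1 of the G2/M genes lie left of the blue line, with 2 red points, and the ATF4 and ER stress genes show 6 red points on the right and 1 on the left.

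None of the 4 genes whose splicing the study followed by RT-PCR passed the test of level. *CHEK1*, the checkpoint kinase, was at 34.7, 40.9 and 44.7 TPM with Luc and at 33.7, 41.6 and 35.9 TPM with TRA2B-OE (log2 fold change −0.19 ± 0.22, adjusted p = 0.66). The centrosome genes *CEP192* (−0.15 ± 0.13, adjusted p = 0.52) and *CNTRL* (−0.18 ± 0.11, adjusted p = 0.32) also overlapped between groups. *OFD1*, a centriole and cilium gene, was at 9.90, 7.89 and 8.69 TPM against 12.9, 12.6 and 10.6 TPM, a difference without overlap that did not pass (0.37 ± 0.13, adjusted p = 0.11). Splicing itself is not in these values.

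Of SR protein genes 9.09% passed, of hnRNP genes 11.5% and of other splicing regulators 12.5%, against 7.64% of all genes tested. Of 11 SR protein genes tested, *SRSF3* fell and none rose, from 412, 405 and 410 TPM to 291, 327 and 304 TPM (−0.49 ± 0.09, adjusted p = 0.0085), and the list's median was −0.13. *SRSF3* encodes a small SR protein that, like the TRA2 factors, regulates its own poison exon. None of 9 SR protein kinases passed (lowest adjusted p 0.14, *CLK1*, at 47.6 ± 2.34 and 58.0 ± 5.14 TPM). Of 26 hnRNP genes, whose products often oppose SR proteins at exons, 3 fell and none rose, with 20 negative values and a median of −0.15 that shrank to −0.02 after quantile normalization, where 1 rose and 2 fell. Without the 2 Control KO libraries that stood apart, 13 of the 26 hnRNP genes (50%) fell, against 16.3% of all genes in either direction. In that fit 4 of the 11 SR protein genes (36.4%) and 1 of the 9 kinases (11.1%) fell as well, and none rose. *HNRNPA3* was the tightest, at 219, 216 and 219 TPM against 177, 171 and 165 TPM (−0.43 ± 0.04, adjusted p = 3.0e-04). *HNRNPA2B1* was at 1192, 1121 and 1166 TPM against 1023, 1009 and 962 TPM (−0.30 ± 0.06, adjusted p = 0.012), and *HNRNPR* at 197, 191 and 194 TPM against 158, 162 and 156 TPM (−0.37 ± 0.08, adjusted p = 0.018).

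Of 32 other splicing regulators, 3 fell and 1 rose, with a median of −0.04 that was 0.04 without scaling and 0.02 under quantile normalization. *MBNL3*, a muscleblind protein, fell from 7.89, 8.19 and 8.40 TPM to 6.53, 5.79 and 5.36 TPM (−0.55 ± 0.12, adjusted p = 0.015). *KHDRBS1*, which encodes SAM68 (−0.26), and *SRRM3*, a neuronal microexon factor (−0.41), fell, and *U2AF2*, the large subunit of the factor that binds the polypyrimidine tract, rose (0.29). *MAGOHB*, an exon junction protein, fell from 70.1, 71.8 and 70.0 TPM to 45.5, 37.1 and 45.7 TPM (−0.81 ± 0.12, adjusted p = 0.0029), the only one of 15 genes of nonsense-mediated decay and the junction complex to pass. Host genes of small nucleolar RNAs, whose spliced transcripts are often substrates of that decay, had 10 positive and 5 negative values among 15 tested, with a median of 0.17, and 2 rose and 2 fell (4 and 2 under quantile normalization). *SNHG5* (27 ± 4.50 to 42.5 ± 1.65 TPM, log2 fold change 0.59) and *SNHG15* (25.5 ± 1.66 to 40.6 ± 1.97 TPM, 0.59) rose, while *SNHG6* (401, 448 and 421 TPM to 276, 343 and 338 TPM, −0.49) and *TMEM107* (10.5 ± 1.10 to 6.95 ± 1.13 TPM, −0.67) fell. *SRSF3*, *HNRNPA3*, *HNRNPA2B1*, *MAGOHB* and *TMEM107* passed without each library in turn. The highest adjusted p of the others was 0.059 for *HNRNPR* and 0.17 for *U2AF2* (both without Luc replicate 1), 0.060 for *MBNL3* (without TRA2B-OE replicate 3), 0.093 for *KHDRBS1* (without TRA2B-OE replicate 2), 0.12 for *SRRM3* (without TRA2B-OE replicate 1), 0.055 for *SNHG6* (without Luc replicate 2), 0.088 for *SNHG5* (without Luc replicate 3) and 0.080 for *SNHG15* (without TRA2B-OE replicate 3).

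Cell cycle genes had mostly negative values, and how many passed depended on the libraries in the fit. Of 54 G2/M genes, 53 had a negative log2 fold change with a median of −0.33, the groups did not overlap in 25 of them, and 2 passed. Those were *CBX5*, which encodes the heterochromatin protein HP1 alpha (70.6 ± 3.47 to 60.5 ± 8.65 TPM, −0.31 ± 0.08, adjusted p = 0.026), and *FAM64A*, a mitotic regulator (51.4 ± 4.98 to 38.7 ± 1.79 TPM, −0.49 ± 0.12, adjusted p = 0.032). Without the 2 Control KO libraries that stood apart 36 of the 54 fell (66.7%, against 16.3% of all genes in either direction), with a median of −0.36. The summed TPM of the list was 6412 to 6689 with Luc and 5245 to 5989 with TRA2B-OE, groups that did not overlap. In bulk RNA fewer cells in a phase and less RNA per cell cannot be told apart. None of 42 S phase genes passed (36 negative, median −0.15, lowest adjusted p 0.11). Without those 2 libraries 5 S phase genes (11.9%) and 2 homologous recombination genes (6.67%) fell, against 16.3% of all genes in either direction. Of 25 p53 targets, 3 rose and 2 fell, with a median of −0.01 whose sign changed with the scaling, and 4 rose and 6 fell without those 2 libraries. *BBC3*, the apoptosis gene PUMA (12.4 to 20.4 TPM, 0.64 ± 0.17), *SESN2* (0.39 ± 0.08) and *PLK3* (0.39 ± 0.09) rose, while *MDM2*, the ubiquitin ligase of p53 (214 to 166 TPM, −0.45 ± 0.09), and the antiproliferative *BTG2* (−0.41 ± 0.08) fell. Of 31 centrosome and centriole genes *HAUS1*, an augmin subunit, fell (−0.46 ± 0.12) and none rose, and none of 30 homologous recombination and Fanconi anemia genes passed (lowest adjusted p 0.082). Of the genes of this paragraph that passed, *MDM2* alone did so without each library in turn, and the highest adjusted p was 0.083 for *CBX5*, 0.12 for *FAM64A*, 0.053 for *SESN2* and *BTG2*, 0.11 for *PLK3*, 0.13 for *BBC3* and 0.098 for *HAUS1*. The library left out was TRA2B-OE replicate 3 for *CBX5* and *BBC3*, TRA2B-OE replicate 2 for *BTG2*, Luc replicate 2 for *HAUS1* and Luc replicate 1 for *FAM64A*, *SESN2* and *PLK3*.

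Genes of the ATF4 and ER stress response, which cells switch on when amino acids run short or proteins misfold, had 28 members tested, of which 6 rose and 1 fell (5 and 2 under quantile normalization, 6 and 0 without scaling, and 6 and 5 without the 2 Control KO libraries that stood apart), although 15 had a negative value and the median was −0.03, or 0.05 without scaling and 0.04 under quantile normalization. *TRIB3*, a pseudokinase that restrains ATF4, was at 52.5, 52.7 and 51.6 TPM with Luc and at 110, 88.9 and 94.3 TPM with TRA2B-OE (0.82 ± 0.10, adjusted p = 9.1e-04). The transcription factor gene *CEBPB* was at 124, 131 and 111 TPM against 177, 166 and 174 TPM (0.42 ± 0.07, adjusted p = 0.0031). Both were higher in each TRA2B-OE library than in any Luc library. *HERPUD1*, a gene of ER-associated degradation (42.7 ± 5.08 to 65.9 ± 6.93 TPM, 0.55), *SESN2*, shared with the p53 list, *PSPH*, the last enzyme of serine synthesis (0.23), and 1 further gene rose, and the lipoprotein receptor gene *VLDLR* fell (−0.50). *TRIB3* and *CEBPB* passed without each library in turn, while *PSPH* and *HERPUD1* did not (highest adjusted p 0.10 without Luc replicate 2, and 0.11 without Luc replicate 3), nor did *SESN2* (0.053, without Luc replicate 1) or *VLDLR* (0.14, without TRA2B-OE replicate 3).

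In the hypoxia and glycolysis list of 26 genes, 2 rose and 2 fell and the others did not pass. The histone demethylase gene *KDM3A* (48.5 ± 1.92 to 72.0 ± 3.78 TPM, 0.49 ± 0.07, adjusted p = 0.0024) and *VEGFA*, the vascular growth factor (51.4 ± 3.16 to 76.0 ± 5.10 TPM, 0.48 ± 0.13, adjusted p = 0.039), rose. The glycolytic genes *PGK1* (159, 152 and 154 TPM against 82.8, 110 and 112 TPM, −0.70 ± 0.11, adjusted p = 0.0030) and *LDHA* (1333, 1164 and 1177 TPM against 978, 905 and 852 TPM, −0.51 ± 0.08, adjusted p = 0.0036) fell. Of 14 ERK feedback genes *SPRY2* (−0.28) and *ETV5* (−0.38) fell, and of 23 immediate early and AP-1 genes *ZFP36*, which encodes an mRNA decay factor, rose (0.66 ± 0.17, adjusted p = 0.032). None of 38 interferon-stimulated genes passed, with 31 negative values and a median of −0.24 (lowest adjusted p 0.15), and none of 3 metallothionein genes did. *KDM3A*, *PGK1* and *LDHA* passed without each library in turn, and the highest adjusted p was 0.15 for *VEGFA* (without Luc replicate 1), 0.11 for *ZFP36* (without TRA2B-OE replicate 3), 0.088 for *SPRY2* (without Luc replicate 2) and 0.13 for *ETV5* (without TRA2B-OE replicate 2).

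Matrix genes changed in both directions. Of 22 collagen genes, 4 fell and 1 rose. *COL9A2*, a chain of the fibril-associated collagen IX, fell from 40.1, 43.6 and 34.6 TPM to 24.4, 27.3 and 24.7 TPM (−0.70 ± 0.13, adjusted p = 0.0078), and *COL9A3*, another chain of the same trimer, from 399, 379 and 290 TPM to 275, 287 and 245 TPM (−0.47 ± 0.12, adjusted p = 0.035). *COL11A1* (284, 254 and 222 TPM with Luc against 170, 188 and 153 TPM, −0.65 ± 0.14) and *COL8A1* (−0.55 ± 0.15) fell, and the basement membrane chain *COL4A5* rose (12.5 ± 0.85 to 17.8 ± 0.82 TPM, 0.43 ± 0.10). Of 27 integrin and laminin genes, *LAMB3*, a chain of an epithelial laminin, rose from 27.9, 37.2 and 36.4 TPM to 57.7, 72.3 and 77.8 TPM (0.95 ± 0.17, adjusted p = 0.0056) and none fell. Of 20 matrix proteases and inhibitors, the membrane-type metalloprotease gene *MMP15* fell from 27.2, 29.2 and 24.3 TPM to 15.8, 19.0 and 16.2 TPM (−0.74 ± 0.08, adjusted p = 5.5e-04), *TIMP3* fell (−0.31) and *ADAMTS6* rose (0.50). Of 15 cytokine and chemokine genes, *CXCL8*, the neutrophil attractant interleukin 8, rose from 72.2, 61.6 and 70.9 TPM to 115, 89.4 and 89.0 TPM (0.43 ± 0.10, adjusted p = 0.021). *COL9A2*, *LAMB3* and *MMP15* passed without each library in turn. The highest adjusted p was 0.060 for *COL11A1* and 0.070 for *TIMP3* (without TRA2B-OE replicate 3), 0.14 for *COL8A1* (without TRA2B-OE replicate 2), 0.12 for *COL9A3* and 0.17 for *ADAMTS6* (without Luc replicate 1), and 0.093 for *COL4A5* and 0.095 for *CXCL8* (without Luc replicate 2).

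Among the nuclear long noncoding RNAs, *NEAT1* and *MALAT1* moved in opposite directions. *NEAT1*, the scaffold of paraspeckles, fell from 316, 306 and 232 TPM to 123, 168 and 161 TPM (−1 ± 0.22, adjusted p = 0.018), and *MALAT1*, an RNA of nuclear speckles, rose from 251, 240 and 261 TPM to 329, 481 and 439 TPM (0.64 ± 0.13, adjusted p = 0.010). *MIR22HG*, the host of miR-22, rose from 20.5, 18.0 and 15.7 TPM to 34.5, 37.7 and 36.6 TPM (0.93 ± 0.11, adjusted p = 6.4e-04). *MIR22HG* passed without each library in turn, *NEAT1* did not (0.066, without Luc replicate 1), nor did *MALAT1* (0.052, without TRA2B-OE replicate 2).

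Markers of cell identity shifted in a few genes. *SOX2*, a transcription factor of neural and glioma stem cells (chr3:181711925-181714436, plus strand), fell from 54.6, 41.7 and 37.5 TPM to 30.1, 25.3 and 20.4 TPM (−0.90 ± 0.14, adjusted p = 0.0028), and the intermediate filament gene *NES* from 254, 275 and 271 TPM to 213, 226 and 213 TPM (−0.37 ± 0.06, adjusted p = 0.0048). Both passed without each library in turn. They were the only markers that passed of 8 astrocyte and neural progenitor and 9 glioma markers tested, and *SOX10* was at 488 ± 83.7 and 416 ± 33.8 TPM (−0.30 ± 0.15, adjusted p = 0.24). Without the 2 Control KO libraries that stood apart 3 of these 8 and 4 of these 9 markers passed. None of 6 neuron markers passed (2 without those libraries), and none of 5 lung epithelial markers (1 without those libraries), listed because the cDNA came from a lung line, with summed levels of 245 to 252 TPM and 281 to 315 TPM and *NKX2-1*, *SFTPB* and *SFTPC* below 0.2 TPM throughout. The lysosomal gene *CD68*, which also marks macrophages, rose from 23.7, 23.6 and 21.1 TPM to 33.9, 33.4 and 35.4 TPM (0.51 ± 0.11, adjusted p = 0.017, and 0.071 without Luc replicate 3), while *PTPRC* stayed at or below 0.41 TPM and *AIF1* and *MS4A1* were listed at 0 in all 6 libraries.

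The same comparison with *TRA2A* uncut, TRA2B-OE Control KO minus Luc Control KO, shares no library with the one above. It called 51 genes higher (0.276%) and 4 lower (0.0216%), and 35 in all without replicate 1 of both groups. Without the fold threshold 190 genes passed (1.03%). Of the 306 genes called after *TRA2A* KO, 45 were also called there (14.7% of the 306 and 81.8% of the 55), all in the same direction. Of the 250 higher genes 238 (95.2%) had a positive log2 fold change with *TRA2A* uncut, against 49.7% of all genes, with a median of 0.91 beside 1.56 after *TRA2A* KO. Of the 56 lower genes 39 (69.6%) had a negative one, with medians of −0.33 and −1.42. Without replicate 1 of both groups 21 of the 306 genes were called there (6.86% of the 306 and 60% of the 35), all in the same direction, 228 of the 250 (91.2%) had a positive value and 32 of the 56 (57.1%) a negative one, with medians of 0.84 and −0.23, against 47.8% positive among all genes. The genes were selected on the comparison after *TRA2A* KO, so the sizes in both settings are a description and were not tested against each other. Both comparisons may rest on the same Luc and TRA2B-OE populations. For the glioma line LN319 the paper describes stable expression of either cDNA before guide delivery. Any other difference between such populations cannot be told apart from the added cDNA and was not tested.

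Whether added *TRA2B* had a different effect after *TRA2A* KO was tested by the difference of the differences, and no gene passed. limma called 0 of all genes tested (0%, smallest adjusted p 0.12), with 1051 genes (5.68%) at an unadjusted p under 0.05. Leaving out TRA2B-OE Control KO replicate 1 gave 6 calls, leaving out Luc Control KO replicate 1 or TRA2B-OE Control KO replicate 2 gave 1, and leaving out both libraries numbered 1 gave 2. The 3 named genes of smallest p were *FAM98A*, *PLLP* and *C7orf55-LUC7L2*, each with an adjusted p of 0.45. *PLLP*, which encodes the myelin protein plasmolipin, was at 4.36, 3.17 and 4.26 TPM with Luc and at 11, 7.56 and 9.77 TPM with TRA2B-OE after *TRA2A* KO, and at 6.47, 5.38 and 4.94 TPM and 6.16, 3.63 and 3.95 TPM with *TRA2A* uncut (difference 1.52 ± 0.29 on the log2 scale, 1.73 with an adjusted p of 0.047 without TRA2B-OE Control KO replicate 1). *FAM98A* differed by −0.52 ± 0.09 and the read-through transcript *C7orf55-LUC7L2* by −0.97 ± 0.19. Side by side and without a test, the median of the G2/M genes was −0.33 after *TRA2A* KO and −0.12 with *TRA2A* uncut (−0.36 and −0.25 without both libraries numbered 1).

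**Figure D5:**
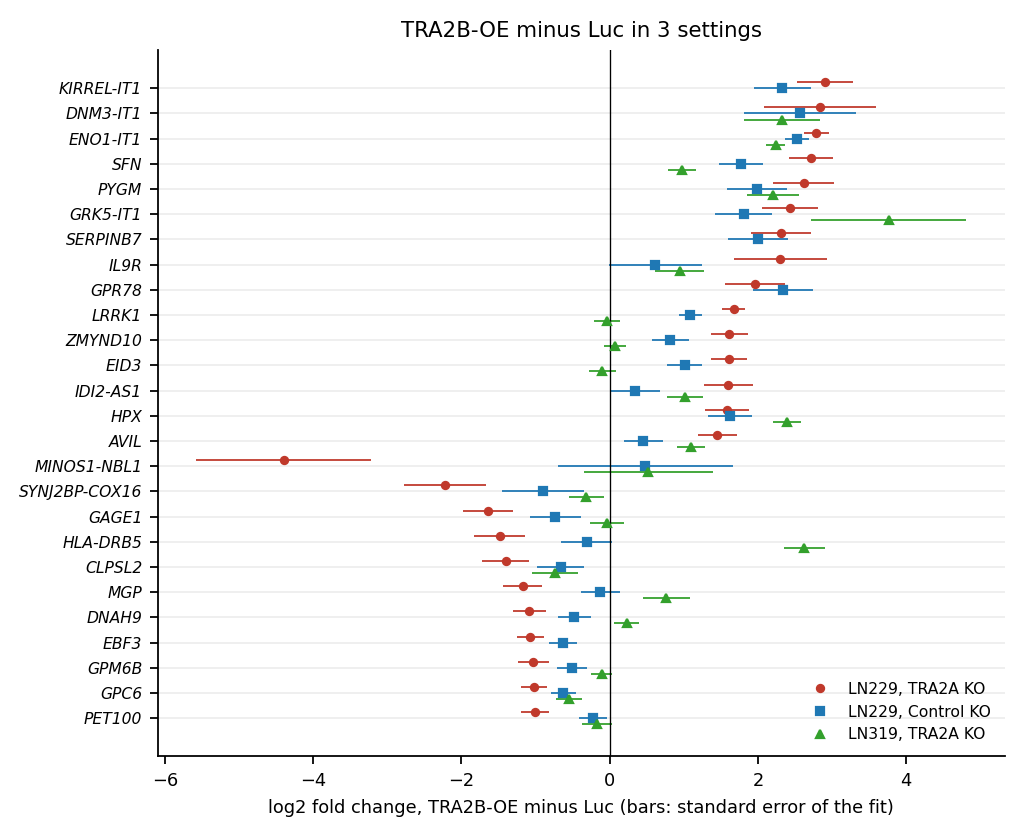
Log2 fold change of TRA2B-OE minus Luc for the 26 named genes after *TRA2A* KO in LN229 (circles), with *TRA2A* uncut in LN229 (squares) and after *TRA2A* KO in LN319 (triangles, where tested), with bars of 1 standard error of each fit (3 libraries per group). The intronic transcripts and *PYGM* and *HPX* are high in all settings in which they were tested, *LRRK1*, *ZMYND10* and *EID3* lie near 0 in LN319, and *HLA-DRB5* lies on opposite sides in the 2 lines.

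LN319, a glioma line that depends on *TRA2A*, gave the same comparison with its own 6 libraries, which are set beside those of LN229 without a test between lines. There 264 genes were called (1.37%), 201 of them higher (1.04%) and 63 lower (0.326%), and 1110 genes rose without the fold threshold (5.75%). *TRA2B* rose from 104 ± 10.3 to 975 ± 12.7 TPM (log2 fold change 3.17). Of 16426 genes tested in both lines, 49 were called in both, which is 20.7% of the 237 called in LN229 and 29% of the 169 called in LN319, and 48 of them had the same direction. Of the intronic transcripts, only *ENO1-IT1*, *DNM3-IT1* and *GRK5-IT1* were called in both lines, with log2 fold changes of 2.24, 2.33 and 3.76 in LN319. *DNM3-IT1* (0.53 and 3.21 TPM) and *GRK5-IT1* (0.156 and 2.32 TPM) were at a low level there. *KIRREL-IT1* was not tested in LN319, at 0.288 and 0.469 TPM. *PYGM* (2.21), *HPX* (2.40) and *AVIL* (1.10) were called there as well. *LRRK1* (−0.03, adjusted p = 0.93), *ZMYND10* (0.07, adjusted p = 0.79) and *EID3* (−0.10, adjusted p = 0.77) did not pass in LN319, and *SFN* rose there by 0.98 ± 0.19 (adjusted p = 0.0068). *BCYRN1* was called lower in LN319 (−1.225, adjusted p = 0.0042), while *RN7SL1* (−0.59, adjusted p = 0.15) and *RN7SL2* (−0.42, adjusted p = 0.40) did not pass. *TRA2A* itself was higher with TRA2B-OE in LN319 (35.5 ± 2.44 to 48.1 ± 4.95 TPM, 0.37, adjusted p = 0.013).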

How the data were processed

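RNA-seq libraries had been made from poly-T selected RNA with a directional kit. The authors deposited gene-level TPM values, made with kallisto 0.48.0 and, per the paper, Gencode v34. The submitters' notes also list STAR 2.7.3 and GRCh38. TPM keeps no depth, and 0 columns were left unmapped. Of 55906 rows, 28 held names turned into dates.

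The 15 LN229 libraries were scaled by trimmed means (30% of ratios and 5% of levels), filtered at 1 TPM in 4 libraries, transformed as log2(TPM + 0.1), so that fold changes of low genes are understated, and fitted together with limma 3.58.1 (moderated statistics with a trend, R 4.3.3). P-values were adjusted by Benjamini-Hochberg over all 18490 genes tested. All adjusted p-values and standard errors are from this fit, TPM values printed are as deposited, and LN319 was fitted in the same way on its own table. The code was tested on simulated data.

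The members and gene lists were chosen with earlier results of these data known. Named were *TRA2A*, *TRA2B*, the 4 RT-PCR targets, up to 15 called genes a direction by fold change (groups apart, mean of at least 5 TPM in the higher group, and no clone, LINC, pseudogene, small RNA or date name), up to 6 passing genes a list by p, and the 3 genes of smallest p for the difference by *TRA2A* status. Classes came from symbols and Gencode v44, which matched 80.9% of genes tested. Alternatives changed the pseudocount, filter, scaling, libraries, fold threshold and replicate block. Those on protein-coding genes alone, on length and GC content, and without both Control KO libraries numbered 1 were chosen after seeing the data. Splicing was not analysed here. 1 listed gene that met the rule for naming is not reported here.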

Additional observations from a re-analysis of the deposited data

Results flagged for a closer look

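Of 81 named genes compared between the lines, 62 (76.5%) had the same direction in both, against 62.7% of the 16426 genes tested in both. For 6 others named above, every TRA2B-OE library moved one way from the Luc libraries after *TRA2A* KO in LN229 and the opposite way in LN319, and the difference between the lines was not tested. *HLA-DRB5* had a log2 fold change of −1.484 in LN229 and 2.625 in LN319, where Luc libraries held 0.543 to 1.27 TPM and TRA2B-OE libraries 4.57 to 7.33 TPM (limma adjusted p = 1.6e-04 in LN319). *COL8A1* was at −0.55 in LN229 and at 1.131 in LN319 (28.4 to 42.5 TPM against 72.5 to 91.7 TPM), and *COL11A1* at −0.651 and 0.429 (105 to 126 TPM against 151 to 171 TPM). The lysosomal gene *CD68* went the other way, with 0.507 in LN229 and −0.516 in LN319 (40.3 to 44.8 TPM against 27.6 to 34.1 TPM). *MGP* (−1.171 and 0.763) and *NES* (−0.373 and 0.228) did not pass an adjusted p of 0.05 in LN319 (0.14 and 0.30).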

How the results depend on the processing

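Of the 306 genes called after *TRA2A* KO, a filter of 5 TPM left 112, dropping the fold threshold gave 1412, and leaving out 1 library gave 170 to 272, the fewest without TRA2B-OE replicate 2. Listed genes that passed numbered 59, 34 without a filter 26 to 54 without 1 library, and 169 without both Control KO libraries numbered 1, where 411 genes were called. *TRA2A* turned from −0.06 to 0.024 without scaling and passed in neither. The difference by *TRA2A* status gave 2 calls without a filter, 2 without both Control KO libraries numbered 1, and 0 to 6 without 1 library. With *TRA2A* uncut, the 55 calls became 24 with the filter of 5 TPM, 1 with only the groups compared, 35 without both libraries numbered 1, 190 without the fold threshold, and 16 to 52 without 1 library. The 264 calls of LN319 became 134 with a pseudocount of 1, 106 with the filter of 5 TPM, 154 with only the groups compared, 2063 without the fold threshold, and 172 to 290 without 1 library. No cause of these shifts was tested. Same-numbered libraries did not deviate together (r = 0.05, −0.028 and −0.017), so the replicate numbers were not read as pairs. With a replicate block 348 genes were called, and *OFD1* passed (0.365, adjusted p = 0.043). *TRA2A* was the only named gene whose direction reversed under an alternative run, and with 1 library left out 197 values lost the threshold. Depth cannot be read from TPM and limits genes of low level.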
